A study of Mus musculus with 7 samples.

Results

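The genes described here encode the local steroid synthesis machinery, the enzymes and cofactors that turn cholesterol into glucocorticoids and related steroids and that switch glucocorticoids on and off within a tissue. They are *Star*, *Cyp11a1*, *Fdx1*, *Fdxr*, *Cyp17a1*, *Hsd3b1*, *Hsd3b6*, *Cyp11b1*, *Hsd11b1* and *Hsd11b2*, and each was taken by its symbol from the deposited expression values. All 10 symbols were present among the 23284 gene symbols listed, each as a single entry. The list was chosen with the FPKM values of TG and CTR papillomas already known, so the comparison of the groups is given for these genes as a description and without a test.

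RNA-seq was performed on skin papillomas from 4 CTR mice and 3 TG mice, 1 library for each mouse. Both groups were littermates of C57BL/6 background with a *tetO-Nanog* allele, a *Nanog* cDNA under a doxycycline-responsive promoter placed downstream of *Col1a1*. Only TG mice also carried *K5-rtTA*, in which a bovine keratin promoter drives the transactivator, so that induction is limited to cells in which that promoter works. All mice, aged 8 to 10 weeks at the start, drank water with DOX at 2 mg/ml. They were painted on the back with a single dose of the carcinogen DMBA and then with the tumor promoter TPA for 15 weeks. A further 15 weeks of observation followed. Papillomas were collected when this whole protocol ended or when a humane endpoint came earlier. *Nanog* lay between 36.9 and 66.9 FPKM in TG papillomas and between 2.7 and 12.7 FPKM in CTR papillomas. FPKM, the fragments of a gene scaled to transcript length and to the mapped fragments of the library, was estimated by the authors for each library. The width of the deposited intervals implied between 10074859 and 15710562 reads on genes in a library, with CTR 3 and TG 1 the deepest. TG 3 stood apart from the other papillomas, with a median over all symbols of 1.14 FPKM against 0.539 to 0.673 FPKM in the others, so results that rest on TG 3 are also given without it. Keratinocyte markers were high in all 7 papillomas, with *Krt14* the most abundant of them.

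Steroid synthesis begins when STAR moves cholesterol to the inner mitochondrial membrane, where CYP11A1 cleaves its side chain to give pregnenolone. Ferredoxin (FDX1) carries electrons to the mitochondrial cytochromes CYP11A1 and CYP11B1, and ferredoxin reductase (FDXR) recharges it from NADPH. The HSD3B enzymes turn pregnenolone into progesterone, CYP17A1 hydroxylates both on the way to androgens, and CYP11B1 makes the final glucocorticoid. HSD11B1 reactivates inert glucocorticoid and HSD11B2 inactivates it. The adrenal cortex and gonads are the classic sites of this pathway, and skin is a known site of local glucocorticoid metabolism.

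Sequences are shown for a pair of members whose reads can be confused, and for the gene with the widest separation of TG 1 and TG 2 from CTR papillomas. *Hsd3b6* and *Hsd3b1* lie close together on chromosome 3, and their coding sequences of 1119 bases each are identical at 1007 positions (90%). The reads were 40 bases long, and 4 identical runs were at least that long, the longest of 72 bases. Bases 240 to 331 of both coding sequences, from GENCODE transcripts on GRCm38, hold that longest run, with the bases that differ in capitals.
Hsd3b6: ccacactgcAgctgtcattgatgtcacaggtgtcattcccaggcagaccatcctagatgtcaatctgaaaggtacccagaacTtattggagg
Hsd3b1: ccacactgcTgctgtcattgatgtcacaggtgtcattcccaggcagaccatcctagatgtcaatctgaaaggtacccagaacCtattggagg
A read lying within the lower case run between the capitals cannot be assigned to either gene by its sequence. Of all stretches of 40 bases in the *Hsd3b6* transcript, 23.1% occurred in a transcript of another gene, most often *Hsd3b2* (18.4%). The share was 8.76% for *Hsd3b1* and 12.5% for *Cyp11b1*, the latter mainly with *Cyp11b2* (11.2%), which encodes aldosterone synthase. It was 0% for the other 7 members. The values of *Hsd3b6*, *Hsd3b1* and *Cyp11b1* are therefore uncertain to that extent. Exons of *Cyp11a1* overlapped the annotated *Gm17322* on the same strand and those of *Cyp11b1* overlapped *Gml2* on the opposite strand. Whether the strand was used in counting is not given in the sources used here.

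A promoter window, the 250 bases before a RefSeq start site, was found for 6 of the 10 members. These 7 windows (*Cyp11a1* has 1 for each of its start sites) were searched on both strands for AAGGTCA, a binding motif of steroidogenic factor 1 family receptors present in 4.08% of 32851 windows of all genes, and for TATAAA (12.4%). Neither was found in these windows. The shorter motif AGGTCA, which is contained in the first and was added after the sequences had been seen, occurred in 14% of all windows and in 1 window of the members. That window belongs to *Cyp11a1*, at chr9:58014702-58014951 on the plus strand (GRCm38.p6), with the match in capitals 28 bases before the start site.
Cyp11a1: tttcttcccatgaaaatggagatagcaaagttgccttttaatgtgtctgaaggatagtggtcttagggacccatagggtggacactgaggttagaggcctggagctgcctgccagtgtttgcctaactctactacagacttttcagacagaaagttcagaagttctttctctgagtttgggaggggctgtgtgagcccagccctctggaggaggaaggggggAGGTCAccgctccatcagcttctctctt
The match is a description of these letters. *Cyp11a1* itself is listed on chromosome 9 from 58015017 to 58027023 (GRCm38).

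*Cyp11a1*, which makes pregnenolone, was the member with the largest log2 difference between groups. It measured 0.249, 0.819, 0.326 and 0.302 FPKM in CTR 1 to CTR 4. It measured 3.42, 4.13 and 0.368 FPKM in TG 1 to TG 3. TG 1 and TG 2 stood well above every CTR papilloma, at 8.06-fold and 9.74-fold of the CTR mean, whereas TG 3 lay inside the CTR range at 0.867-fold. Group means were 0.424 ± 0.265 FPKM (SD, n = 4) in CTR and 2.64 ± 2 FPKM (SD, n = 3) in TG papillomas. On the scale of log2(FPKM + 0.5), which understates changes of low values, the difference was 1.48 with a standard error of 0.68. Without TG 3 it was 2.24. Of the 12 pairings of a TG with a CTR papilloma, 11 had the higher value in TG. The implied reads were few in CTR papillomas, 8 to 27, against 149, 131 and 11 in TG 1 to TG 3. The deposited intervals, which cover the counting error of 1 library, ran from 2.86 to 3.98 FPKM in TG 1 and from 3.41 to 4.85 in TG 2, and neither met the interval of CTR 2, the highest CTR papilloma (0.504 to 1.13).

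*Cyp17a1*, on chromosome 19 from 46667165 to 46673000, followed the same order among TG papillomas with a weaker separation. It measured 0.034, 0.94, 0.213 and 0.483 FPKM in CTR 1 to CTR 4. The TG values were 1.24, 2.77 and 0.795 FPKM in TG 1 to TG 3. TG 1 and TG 2 exceeded every CTR papilloma, and TG 3 exceeded all but CTR 2. Its means were 0.417 ± 0.394 FPKM (SD, n = 4) in CTR and 1.6 ± 1.04 FPKM (SD, n = 3) in TG papillomas, and the log2 difference was 1.18 (standard error 0.49). The CTR 1 value corresponds to 1 read and that of TG 2 to 78 reads. CTR 2 was the highest CTR papilloma for *Cyp11a1* and for *Cyp17a1*. The ratio of *Cyp11a1* to *Cyp17a1* in FPKM ranged from 0.625 to 7.33 in CTR papillomas and from 0.462 in TG 3 to 2.76 in TG 1, so the genes did not keep a fixed proportion.

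*Star*, the cholesterol carrier upstream of *Cyp11a1*, was low and even. It lay on chromosome 8 from 25808513 to 25815982 and measured 0.738, 0.545, 0.435 and 0.575 FPKM in CTR 1 to CTR 4. In TG 1, TG 2 and TG 3 it measured 0.631, 0.696 and 0.596 FPKM. All 3 TG papillomas lay inside the CTR range, and the highest of the 7 papillomas was 1.7-fold the lowest, compared with 16.6-fold for *Cyp11a1*. The log2 difference was 0.09 (standard error 0.10). No papilloma had fewer than 39 implied reads for *Star*.

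The electron carriers were the most abundant members. *Fdx1* (chromosome 9, 51943307 to 51963533) measured 9.25, 15.3, 13 and 10.6 FPKM in CTR 1 to CTR 4. It measured 13.9, 8.14 and 8.91 FPKM in TG 1, TG 2 and TG 3. TG 1 lay inside the CTR range, and TG 2 and TG 3 lay below it. The log2 difference of *Fdx1* was -0.23 (standard error 0.26), smaller than its error. *Fdxr* (chromosome 11, 115268025 to 115276969) measured 4.77, 4.16, 4.13 and 2.98 FPKM in CTR 1 to CTR 4. It measured 5.18, 2.58 and 2.68 FPKM in TG 1, TG 2 and TG 3. TG 1 was the highest papilloma for this gene, and TG 2 and TG 3 were the lowest of all. The log2 difference of *Fdxr* was -0.22 (standard error 0.28). *Fdx1* exceeded *Fdxr* per length in every papilloma, by 1.94-fold to 3.68-fold.

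The cofactor and the cytochrome it serves did not move in proportion. The ratio of *Fdx1* to *Cyp11a1* in FPKM was 37.1, 18.7, 39.8 and 35.3 in CTR 1 to CTR 4. In TG 1, TG 2 and TG 3 the ratio was 4.07, 1.97 and 24.3. *Fdx1* was in every papilloma the more abundant transcript per length, and TG 1 and TG 2 had the lowest ratios.

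**Figure D1:**
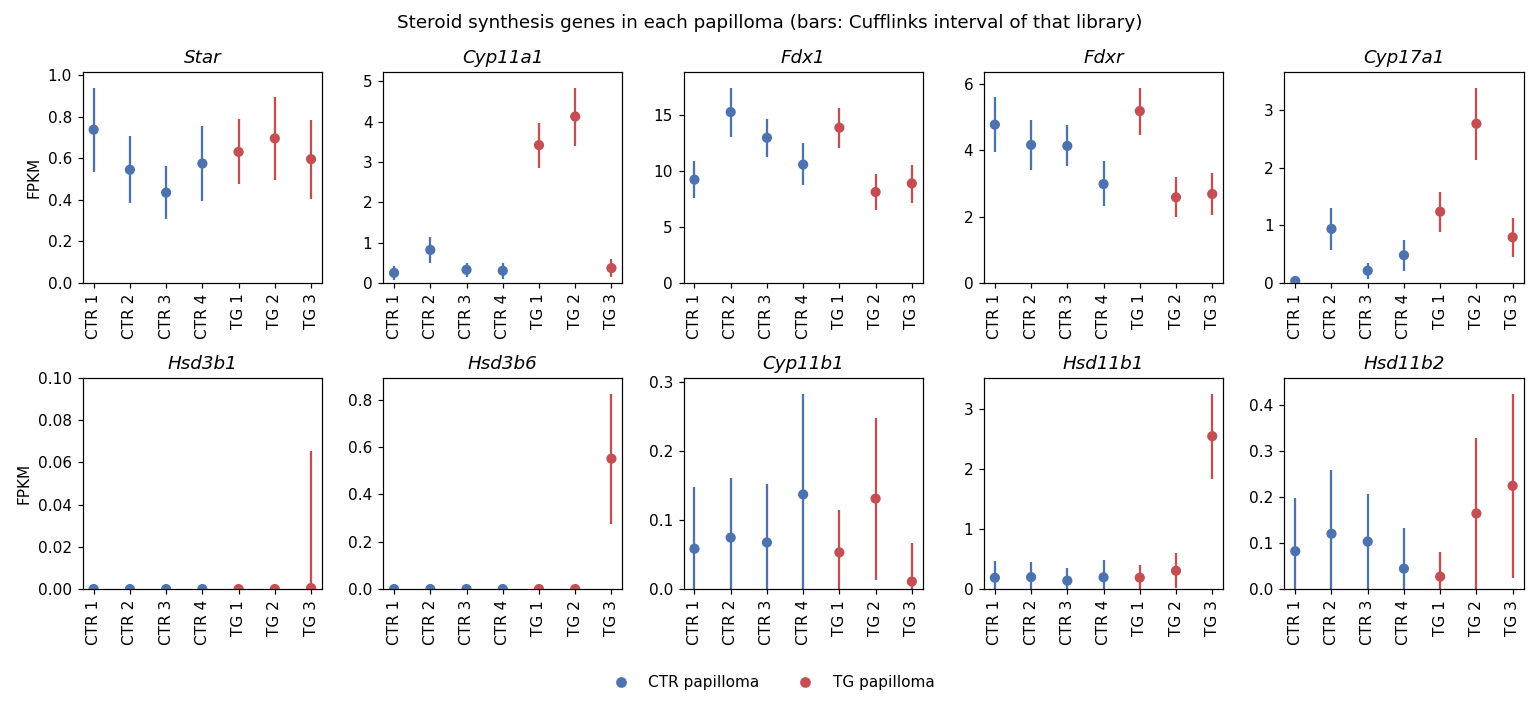
FPKM of the 10 genes in each papilloma (horizontal axis; CTR in blue, TG in red), each panel with its own linear axis from 0; vertical bars are the deposited Cufflinks interval of that library. *Cyp11a1* was 3.42 FPKM in TG 1 and 4.13 in TG 2 against at most 0.819 in CTR papillomas, and *Hsd11b1* and *Hsd3b6* had their high value in TG 3 alone.

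The HSD3B step had little signal. *Hsd3b6* (chromosome 3, 98805504 to 98814443) was listed at 0 in all 4 CTR papillomas, in TG 1 and in TG 2, and at 0.551 FPKM in TG 3, with an interval of 0.275 to 0.826 and 16 implied reads. *Hsd3b1* (chromosome 3, 98852197 to 98859794) was listed at 0 in the same 6 papillomas and at 0.000459 FPKM in TG 3, less than a single read. No fold is given against values listed at 0. The paralog whose stretches *Hsd3b6* shares most, *Hsd3b2*, reached 0.0155 FPKM in TG 3 and was listed at 0 elsewhere. The related *Hsd3b7*, an enzyme of bile acid synthesis, ranged from 1.67 to 5.44 FPKM over the 7 papillomas.

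*Cyp11b1* (chromosome 15, 74834892 to 74841643), the final step to active glucocorticoid, stood at the limit of detection. It measured 0.0584, 0.0745, 0.0675 and 0.137 FPKM in CTR 1 to CTR 4 and 0.0531, 0.131 and 0.0109 FPKM in TG 1, TG 2 and TG 3. None of these values rested on more than 5 implied reads, and every interval except that of TG 2 reached 0. No difference was detectable at this depth (log2 difference -0.05, standard error 0.09). *Cyp11b2* did not exceed 0.0354 FPKM in any papilloma. *Cyp21a1*, which encodes the hydroxylase between progesterone and *Cyp11b1*, ranged from 0 in TG 2 to 1.01 FPKM in CTR 4.

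*Hsd11b1* (chromosome 1, 193221641 to 193264045), the glucocorticoid-reactivating enzyme, was set by TG 3. It measured 0.188, 0.199, 0.14 and 0.196 FPKM in CTR 1 to CTR 4. In TG 1, TG 2 and TG 3 it measured 0.19, 0.305 and 2.55 FPKM. TG 3 stood at 14.1-fold of the CTR mean with 51.4 implied reads, whereas none of the other papillomas exceeded 4.4 reads. The log2 difference of *Hsd11b1* was 0.81 (standard error 0.57) with TG 3 and 0.13 without it. *Hsd11b2* (chromosome 8, 105518746 to 105523988), the inactivating enzyme, measured 0.0821, 0.12, 0.103 and 0.0443 FPKM in CTR 1 to CTR 4 and 0.027, 0.164 and 0.224 FPKM in TG 1, TG 2 and TG 3. It rested on 1 to 5 implied reads, and the groups overlapped.

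Per length and averaged over the 7 papillomas, the order of levels was *Fdx1* (11.3 FPKM), *Fdxr* (3.78), *Cyp11a1* (1.37), *Cyp17a1* (0.925), *Star* (0.602), *Hsd11b1* (0.538), *Hsd11b2* (0.109), *Hsd3b6* (0.0787), *Cyp11b1* (0.0759) and *Hsd3b1* (6.56e-05). Only *Fdx1* above *Fdxr* and *Cyp11b1* above *Hsd3b1* were neighbors whose ranges did not meet. *Cyp11a1* exceeded *Cyp17a1* in 4 of 7 papillomas and *Cyp17a1* exceeded *Star* in 4, so their order was not fixed. Without TG 3 the mean of *Hsd11b1* was 0.203 FPKM, still above *Hsd11b2* at 0.09 FPKM.

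**Figure D2:**
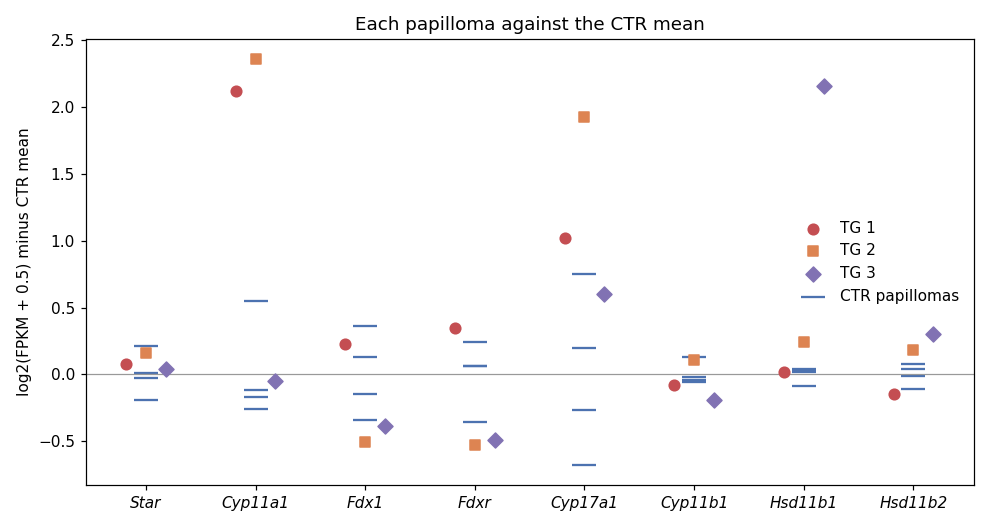
Log2(FPKM + 0.5) of each papilloma minus the mean of the 4 CTR papillomas (vertical axis) for 8 genes (horizontal axis), with TG papillomas as points and CTR papillomas as blue dashes; *Hsd3b1* and *Hsd3b6*, listed at 0 in 6 papillomas, are left out. *Cyp11a1* lay at 2.12, 2.36 and -0.05 in TG 1 to TG 3, and *Hsd11b1* at 0.02, 0.24 and 2.16.

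TG and CTR papillomas were compared over the 12299 genes whose mean reached 0.5 FPKM, by limma on log2(FPKM + 0.5) with Benjamini-Hochberg adjustment. At an adjusted p below 0.05, 0% of the genes tested were called higher in TG and 0% lower by limma. *Nanog* was thus not called either, although its lowest TG value (36.9 FPKM) lay above its highest CTR value (12.7). The absence of calls is therefore not read as an absence of differences. At an unadjusted p below 0.05 there were 598 higher and 241 lower, against 514 and 419 after upper-quartile scaling and 391 and 562 after quantile normalization. 6 of the 10 members passed the filter on low values (*Star*, *Cyp11a1*, *Fdx1*, *Fdxr*, *Cyp17a1* and *Hsd11b1*), *Cyp11a1* and *Cyp17a1* passed only through TG papillomas, as their CTR means of 0.424 and 0.417 FPKM lay below the filter, and *Hsd11b1* passed only through TG 3. Every TG papilloma lay above every CTR papilloma in 4.93% of genes tested and below in 2.23%, and of the 10 members 0 did either. The median log2 difference was 0.45 over the 6 members tested and 0.06 over all genes tested. Without TG 3 these medians were 0.12, over 5 members tested, and -0.03. The list was chosen on this contrast, and 3 of the 6 members behind its median entered through the group where they were high, so nothing is read from these counts and medians. Without TG 3, the TG papilloma inside the CTR range of *Cyp11a1*, *Cyp11a1* and *Cyp17a1* lay wholly above the CTR papillomas, beside 8.97% of all genes above and 9.03% below. Leaving out TG 1, or both deeper papillomas (CTR 3 and TG 1), placed *Fdx1* and *Fdxr* wholly below and *Hsd11b1* and *Hsd11b2* wholly above the CTR papillomas, against 13.1% above and 7.23% below over all genes without TG 1, and 15.1% and 8.07% without both.

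Some cell type markers differed between papillomas along with these genes. In bulk tissue, fewer cells of a type and less RNA per cell cannot be told apart. *Krt10*, a keratin of suprabasal keratinocytes, was 1440, 1370, 950 and 917 FPKM in CTR 1 to CTR 4 and 3150, 3130 and 181 in TG 1 to TG 3. *Krt1*, its partner, was between 187 and 807 FPKM in CTR papillomas and 1520, 3310 and 133 in TG 1 to TG 3. *Cyp11a1* was thus high in the papillomas in which these keratins were high. None of the other keratinocyte markers lay above every CTR papilloma in both TG 1 and TG 2. *Krt14* was 10900 and 7560 FPKM there (5490 to 7870 in CTR papillomas), and *Krt5* was 1780 and 1140 (942 to 1730). *Trp63* was highest in CTR 1, and *Dsg3* and *Cdh1* were highest in TG 3. The part of the keratinocyte composition in the levels of *Cyp11a1* was not tested. The summed 7 keratinocyte markers ranged from 8410 to 11700 FPKM in CTR papillomas and were 17600, 15400 and 7240 in TG 1 to TG 3.

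In TG 3, where *Hsd11b1* and *Hsd3b6* were high, markers of other tissues were high as well. The 7 skeletal muscle markers, led by *Acta1*, summed to 1.5 to 2.99 FPKM in CTR papillomas and 2.1, 4.68 and 583 in TG 1 to TG 3. The 7 fibroblast markers, led by *Col1a2*, summed to 74.5 to 130 FPKM in CTR papillomas and 91.6, 88.5 and 698 in TG 1 to TG 3. TG 3 thus exceeded all other papillomas for muscle and fibroblast markers. Of the adipocyte markers, *Adipoq* was 3.34 FPKM in TG 3 and at most 0.0338 elsewhere, *Plin1* and *Cidec* were listed at 0 outside TG 3, and *Cfd* was 26 FPKM in TG 3 and at most 0.0484 elsewhere. The 8 adipocyte markers together gave 1370 to 3230 FPKM in CTR papillomas and 1550, 2270 and 1800 in TG 1 to TG 3, sums dominated by *Fabp4*. The 10 sebaceous gland markers, led by *Plin2*, summed to 29.4 to 68.3 FPKM in CTR papillomas and 57.1, 28.1 and 129 in TG 1 to TG 3, with *Mc5r* at 0 outside TG 3. The sebaceous sum was highest in TG 3 as well. *Plin2* itself was higher in TG 1 (37.5 FPKM) and CTR 1 (34.3) than in TG 3 (27.7), whereas *Scd1* (41.6) and *Krt79* (36.3) were highest in TG 3. The 6 macrophage markers, led by *Cd68*, summed to 29.3 to 43 FPKM in CTR papillomas and 29, 30.1 and 129 in TG 1 to TG 3. *Cd68* itself was 18.2 FPKM in TG 3, inside the CTR range (15.4 to 20.6), and *Lyz2* (54.1) and *Cd14* (41.9) were the most abundant there. Sums for 6 endothelial markers, led by *Pecam1* (9.71 to 16.4 FPKM in CTR papillomas) were 25.9, 12.7 and 31.6 in TG 1, TG 2 and TG 3. Those for 6 T cell markers (5.04 to 7.63 in CTR papillomas) were 12, 7.6 and 16.9, mostly from *Thy1* (10.7, 5.45 and 14.4). In TG 3, *Cd3g* (0.799 FPKM) and *Cd3d* (0.282) lay inside their CTR ranges. *Cd3e* (0.509), *Cd4* (0.734) and *Cd8a* (0.144) were highest in TG 3, with *Cd3e* close to CTR 2 (0.508) and *Cd8a* close to CTR 4 (0.135). Mast cell markers, 6 in number and led by *Mcpt4*, summed to 2.88 to 5.78 FPKM in CTR papillomas and 2.68, 4.81 and 8.64 FPKM in TG 1, TG 2 and TG 3. The part of these cells in the values of *Hsd11b1* and *Hsd3b6* was not tested.

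**Figure D3:**
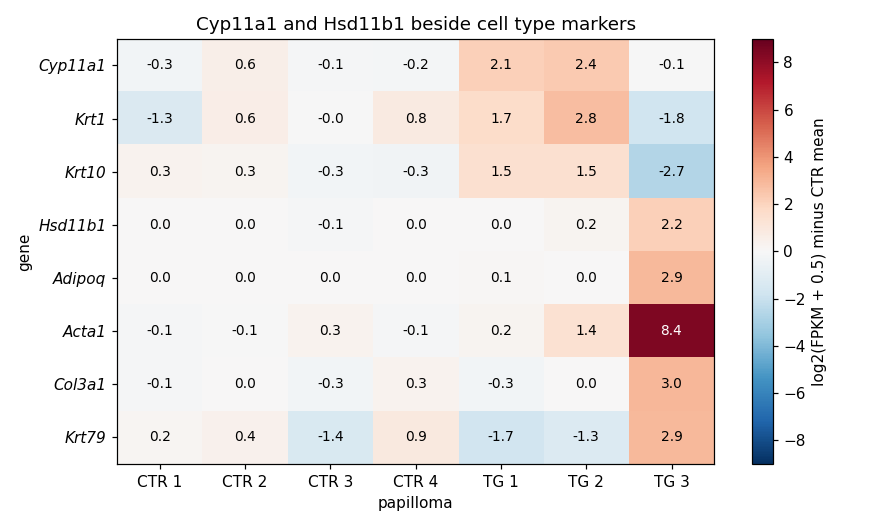
Heat map of log2(FPKM + 0.5) minus the CTR mean (color and printed value) for *Cyp11a1*, *Hsd11b1* and markers of suprabasal keratinocytes (*Krt1*, *Krt10*), adipocytes (*Adipoq*), skeletal muscle (*Acta1*), fibroblasts (*Col3a1*) and sebaceous glands (*Krt79*) in each papilloma. *Cyp11a1* and the keratins were highest in TG 1 and TG 2, and *Hsd11b1* was highest in TG 3, as were the other markers.

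Other steroid enzymes were examined as a list of 34 genes, of which 33 were listed and 15 tested. By limma with Benjamini-Hochberg adjustment 0 were called higher and 0 lower, and at an unadjusted p below 0.05 there were 0 higher and 2 lower. The most abundant was *Sult2b1*, the cholesterol sulfotransferase of differentiating keratinocytes, at 451 ± 105 FPKM (SD, n = 4) in CTR and 242 ± 37.7 FPKM (SD, n = 3) in TG papillomas. Its lowest CTR papilloma (338 FPKM) lay above its highest TG papilloma (281), with a log2 difference of -0.88 (standard error 0.23, limma adjusted p = 0.564). *Hsd17b2*, which inactivates estradiol and testosterone, was 31 ± 6.56 FPKM (SD, n = 4) in CTR and 17.7 ± 1.81 FPKM (SD, n = 3) in TG papillomas, again with no overlap (log2 difference -0.77, standard error 0.20, limma adjusted p = 0.564). *Hsd17b10*, a mitochondrial dehydrogenase, was the third gene with every TG papilloma below every CTR papilloma, by a narrow margin (18 FPKM in TG 1, 18.2 in CTR 4). *Hsd17b11* was the only one with every TG papilloma above, and TG 3 (3.16 FPKM) stood far from TG 1 (0.661) and TG 2 (0.952). Its TG 1 value was close to that of CTR 4 (0.65). Over all genes tested, every TG papilloma lay above every CTR papilloma in 4.93% and below in 2.23%. *Hsd17b12* (51.9 to 63.3 FPKM) and *Hsd17b7* (19.4 to 38.7 FPKM), which act in fatty acid elongation and cholesterol synthesis, were the next most abundant and overlapped between groups. The list held 15 genes below 0.5 FPKM in every papilloma, among them *Cyp19a1*, the aromatase, at no more than 0.0896 FPKM.

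Redox partners and other cytochromes that use ferredoxin formed a list of 9 genes, 7 of them tested, with 0 called in each direction by limma and 0 at an unadjusted p below 0.05. *Cyb5*, *Por* and *Cyb5r3*, which take part in electron transfer at the endoplasmic reticulum, were the most abundant, with means over the 7 papillomas of 88, 50.1 and 26 FPKM. *H6pd*, which supplies NADPH to HSD11B1, was 0.618, 1.26, 1.04 and 1.47 FPKM in CTR 1 to CTR 4 and 1.17, 1.42 and 2.95 FPKM in TG 1, TG 2 and TG 3. It was highest in TG 3, the papilloma in which *Hsd11b1* was highest, and the groups overlapped. *Cyp27a1*, another mitochondrial cytochrome served by ferredoxin, measured 0.385 FPKM in TG 1 and 0.613 in TG 2, below every CTR papilloma (0.921 to 1.88), and 2.44 in TG 3, above them all.

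Of 13 cholesterol transfer genes 11 were tested and 0 were called in either direction by limma, with 1 higher and 0 lower at an unadjusted p below 0.05. *Vdac1* and *Tspo*, proteins of the outer mitochondrial membrane, were the most abundant, with means of 105 and 75.4 FPKM over the 7 papillomas. Every TG papilloma exceeded every CTR papilloma for *Stard3* (5.19 to 5.82 FPKM in CTR, 5.89 to 7.05 FPKM in TG papillomas) and for *Npc2* (18.3 to 27.5 and 30.8 to 37.8 FPKM), both cholesterol-handling proteins of late endosomes. The limma adjusted p was 0.827 for *Stard3* and 0.702 for *Npc2*. Such a separation upward was seen in 4.93% of all genes tested. *Soat1*, which esterifies cholesterol, measured 4.8 FPKM in TG 3 and did not exceed 0.847 FPKM elsewhere.

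**Figure D4:**
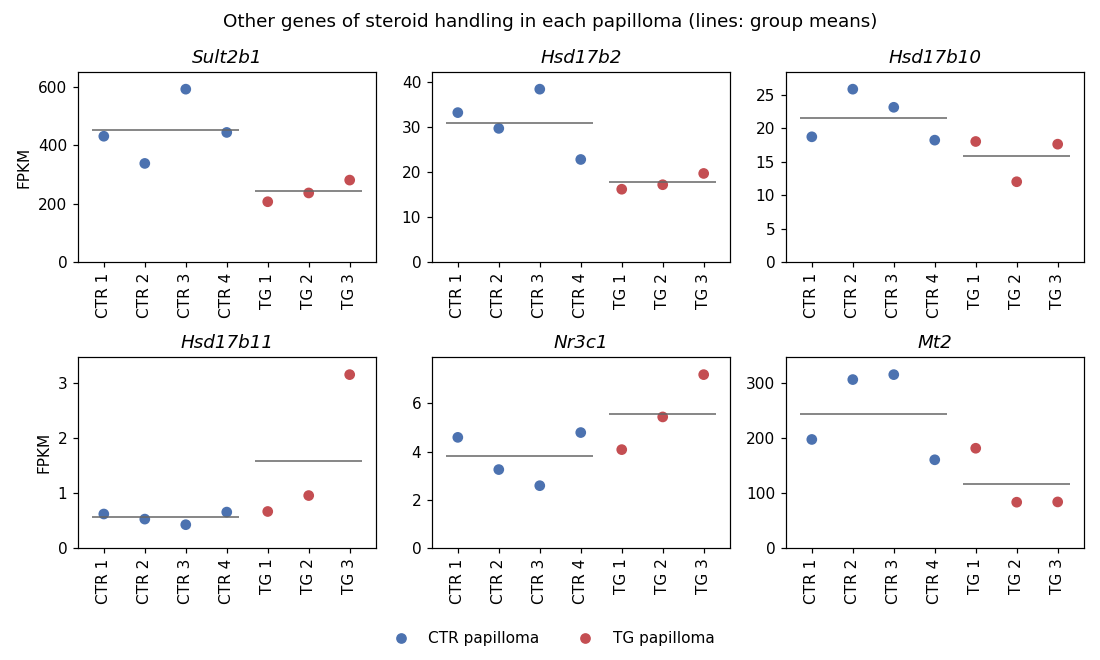
FPKM of 6 other genes of steroid handling in each papilloma (CTR in blue, TG in red; gray lines are group means), each panel with a linear axis from 0. *Sult2b1* and *Hsd17b2* were lower in all 3 TG than in all 4 CTR papillomas, and *Nr3c1* and *Mt2* overlapped between groups.

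The receptors through which these steroids act were represented mainly by *Nr3c1*, the glucocorticoid receptor and the only 1 of 6 steroid receptors to be tested. It was 3.8 ± 1.06 FPKM (SD, n = 4) in CTR and 5.57 ± 1.57 FPKM (SD, n = 3) in TG papillomas, with overlapping groups (log2 difference 0.50, standard error 0.26, limma adjusted p = 0.809). The TG values of *Nr3c1* were 4.08, 5.44 and 7.2 FPKM in TG 1 to TG 3. TG 3 was thus the highest, and TG 1 lay inside the CTR range (2.58 to 4.79). *Nr3c2*, the mineralocorticoid receptor, did not exceed 0.0491 FPKM. *Esr1* reached 0.717 FPKM in TG 3 and no more than 0.325 FPKM elsewhere, and *Esr2* ranged from 0.097 to 0.4 FPKM.

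The upstream regulators were hardly detected. All 16 genes of the CRH-ACTH axis and of steroidogenic transcription factors lay below 0.5 FPKM in every papilloma, and 0 were tested. *Mc1r* was the most abundant, at 0.255 to 0.477 FPKM, followed by *Gata6* and *Mrap2*, with highest values of 0.324 and 0.125 FPKM. *Pomc*, which encodes the ACTH precursor, was 0.0831 FPKM in TG 3, its receptor *Mc2r* was 0.0979 FPKM there, and both were listed at 0 in the other papillomas. *Nr5a1*, which encodes steroidogenic factor 1, was 0.0253 FPKM in TG 1, 0.0225 FPKM in TG 3 and 0 elsewhere, TG 2 included. At such low values a 0 does not show that the transcript was absent. A link of *Nr5a1* to *Cyp11a1* was not tested.

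Genes known to be induced by glucocorticoids gave values in both directions. Of 15, 14 were tested and 0 were called in either direction by limma, with 1 higher and 2 lower at an unadjusted p below 0.05. The metallothionein genes *Mt1* and *Mt2* had log2 differences of -0.86 and -1.12 (standard errors 0.36 and 0.35, limma adjusted p = 0.719 and 0.646), and for each the groups overlapped. *Anxa1* was the most abundant, with a mean of 1980 FPKM over the 7 papillomas. *Cebpd* was the single gene with every TG papilloma above every CTR papilloma, at 0.867 to 1.52 FPKM in CTR and 1.8 to 2.65 FPKM in TG papillomas (limma adjusted p = 0.686). The same held for 4.93% of all genes tested. *Fkbp5*, a classic target of the glucocorticoid receptor, was 3.91, 3.33, 3.56 and 4.86 FPKM in CTR 1 to CTR 4 and 2.35, 2.08 and 4.28 FPKM in TG 1, TG 2 and TG 3. It was lowest in TG 1 and TG 2, the papillomas with the most *Cyp11a1*, as were *Klf9* and *Anxa1*. The other genes of the list were not lowest in both. Among them, *Tsc22d3* was 2.03 and 2.02 FPKM in TG 1 and TG 2 and 1.32 to 2.72 FPKM in CTR papillomas. A link of these genes to *Cyp11a1* was not tested.

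Finally, the genes whose values followed those of a member most closely over the 7 papillomas were listed for the 3 members whose mean reached 1 FPKM. For *Cyp11a1* these were *Txnrd3* (Pearson r = 0.988 of log2 values), *Ano8* (0.981) and *Figf* (0.980). *Txnrd3* was 4.13 to 6.15 FPKM in CTR papillomas and 9.66, 9.25 and 4.76 in TG 1 to TG 3. For *Fdx1* they were *Fam165b* (0.979), *Arl6ip4* (0.979) and *Aimp2* (0.974), and for *Fdxr* they were *1810046J19Rik* (0.991), *Bcas2* (0.971) and *Hist1h2an* (0.968). These are the highest values among 12299 genes over 7 papillomas that share library depth and composition, and they are given as a description. Without TG 3 the r of these 9 genes lay between 0.976 and 0.991. The genes had been picked with the remaining papillomas included, so nothing is read from this range.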

How the data were processed

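The authors mapped 40-base single reads with TopHat2 2.0.4 on GRCm38/mm10 (Bowtie 0.12.7, SAMtools 0.1.16, 2 mismatches and 5 multiple hits allowed), ran Cufflinks 1.3.0 on each library and deposited FPKM values for genes with an interval and a status. RNA integrity numbers were 7.2 to 8.9, and polyA+ RNA was made into stranded libraries. The read counts printed were computed here from the interval widths: below 50 reads, 67.2% to 68.8% of values came out whole within 0.05, so they are approximate, and like the intervals they cover counting error only.

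Entries of 1 symbol were summed (240 symbols), and 162 symbols with a failed estimate in any library were left out. Locus starts were shifted by 1 to count from 1. Groups came from the sample labels. Genes whose mean over the 7 papillomas reached 0.5 FPKM were fitted with limma 3.58.1 (R 4.3.3), with a variance trend, on log2(FPKM + 0.5), 2-sided, with Benjamini-Hochberg adjustment at 0.05. The fit was run on simulated data in which both groups had the spread of the CTR papillomas. That run does not cover a larger spread among TG papillomas, and nothing is read from it here. Standard errors are from the pooled SD of the groups for members and from limma for the other genes. Python 3.11.15, numpy 2.4.6, pandas 2.3.3 and matplotlib 3.10.9 were used. Cuffdiff, which the study used, needs aligned reads and was not run.

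The members and lists were chosen with earlier results of these data known. Named were all members, *Nanog*, of each list of steroid-related genes the 3 most abundant and, among those tested, the 2 with the largest differences, and of each marker list the most abundant marker. *Fkbp5*, *Hsd3b7*, *Cyp21a1*, *Cyp11b2*, *Hsd3b2*, *Cyp19a1*, *Nr3c2*, *Pomc*, *Mc2r*, *Nr5a1*, *Krt1* and *Krt10* were named for their role, after their values had been seen, as were genes without overlap and single markers. *Klf9* and *Tsc22d3* were named beside *Fkbp5* in the same way. Sequences came from GENCODE and RefSeq. As 19 alternatives, the fit was repeated with a pseudocount of 0.1 or 1, without the filter or with a minimum mean of 2 FPKM, and with upper-quartile scaling, quantile normalization, no variance trend, sample quality weights, a replicate block, the highest entry of a symbol, values of every status, all but 1 papilloma at a time, or the papillomas of lower depth.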

Additional observations from a re-analysis of the deposited data

Results flagged for a closer look

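*Cyp11a1* in CTR papillomas stood out because of 1 sample: CTR 2, at 0.819 FPKM, lay apart from the other 3 CTR papillomas (0.249 to 0.326 FPKM). The gap to its nearest neighbor was 0.864 of the whole CTR range, above Dixon's critical value for 4 samples. Chance alone gives such a result in about 1 of 20 groups, and 10 genes were examined. Without CTR 2, *Cyp11a1* and *Cyp17a1* were higher in every TG than in every remaining CTR papilloma, as were 6.49% of all genes tested.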

How the results depend on the processing

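Over 19 alternatives the log2 difference kept its sign for *Cyp11a1* (1.04 to 2.26), *Cyp17a1* (0.81 to 1.92), *Hsd11b1* (0.13 to 1.28), *Fdx1* (-0.45 to -0.08) and *Fdxr* (-0.51 to -0.07). The settings for the filter, the minimum mean, the variance trend, the highest entry and the status cannot change the difference of a member. As the members were chosen on this contrast, the kept signs are a description. *Star* turned to -0.10 and *Hsd11b2* to -0.02 under quantile normalization, and *Cyp11b1* changed sign without TG 3 and with sample quality weights. The median over the members tested was -0.22 with a minimum mean of 2 FPKM, which left only *Fdx1* and *Fdxr*, and -0.10 under quantile normalization. Genes called by limma were 49 higher and 36 lower with sample quality weights, and 1 higher (*Nanog*) in the papillomas of lower depth. Leaving out 1 papilloma at a time gave 0 to 9 genes higher, 0 to 8 lower, and 0 to 4 members without overlap between groups. The extremes came without TG 3 (9 and 8) and without TG 1 (4 members), and in the papillomas of lower depth 4 members did not overlap. The share of all genes without overlap rose too, from 4.93% above and 2.23% below to 13.1% and 7.23% without TG 1 and to 15.1% and 8.07% at lower depth. Leaving out CTR 3 gave 1 gene higher (*Nanog*) and leaving out TG 1 gave 2 (*Hand1* and *Slc5a8*). The cause was not tested. A block for the replicate number left 0 genes called in each direction (505 higher and 170 lower at an unadjusted p below 0.05), and CTR 4 had no partner. Deviations from the group means correlated at r = -0.186, 0.0431 and -0.146 for same-numbered papillomas, so the numbers were not taken as pairs. Depth limits *Cyp11b1*, *Hsd11b2* and *Hsd3b1*, which rested on 5 implied reads or fewer.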
